A study of Rattus norvegicus with 8 samples.

Results

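The genes described here code for carriers of the Slc4, Slc8, Slc9, Slc12, Slc24, Slc30 and Slc39 families, which move bicarbonate, calcium, protons, chloride, zinc and other metals across membranes. They were taken by gene symbol alone, as every symbol of those families followed by a member number, and FPKM (fragments per kilobase of transcript, relative to all mapped fragments of a library) was summed where a symbol had several loci. This gave 61 of the 16514 symbols in the tables of both tissues. Of the 61, 58 are carriers by name, and the other 3 (Slc4a1ap, Slc9a3r1 and Slc9a3r2) share the prefix but code for an adaptor and for scaffold proteins that bind the exchangers.

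RNA came from the hippocampus, a seat of memory, and from the hypothalamus, the centre of hormonal and metabolic control, of male Sprague Dawley rats that were 2 months old when the diets began. All 8 libraries, 4 of each tissue, belong to the arm labelled Fru_DHA, whose rats ate the n-3 (omega-3 fatty acid, DHA) diet and drank 15% fructose for 6 weeks. Both tissues therefore share the diet and the fructose, and the comparison open to these data is between tissues, since the arm on the n-3 diet without fructose was not analysed here. The labels do not say whether the libraries of a tissue came from separate animals, so the spread between them may be technical.

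Carriers of these families set the ion gradients on which neurons and glia run. Chloride cotransporters fix the direction of the current through GABA-A receptors, sodium-calcium exchangers clear calcium after activity, and bicarbonate carriers and sodium-proton exchangers hold cell pH. Zinc is packed into synaptic vesicles of glutamate neurons by a member of the Slc30 family, whose other members move zinc or manganese out of the cytosol, while Slc39 members move metals into it.

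The tables of the tissues were normalised separately, and each library was therefore scaled by 1 factor computed over the 15892 symbols in both tables; all levels below are such scaled FPKM, and are given in the order of replicates 1 to 4. A difference is hypothalamus minus hippocampus of the mean log2(scaled FPKM + 1), with its standard error (SE, 4 libraries against 4), a scale that compresses differences between small values. Calls of higher or lower in hypothalamus required a difference of at least 1 in size, which is 2-fold, and libraries that did not overlap between the tissues. Tissue and table coincide, so a difference between tissues and one between tables cannot be told apart by any test, and none was used for the calls. Read depth is not known from FPKM, so no counting interval is given.

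Tissue markers followed the labels, with all 6 genes of hypothalamic neurons called higher in hypothalamus and 5 of 5 measurable genes of hippocampal pyramidal and granule cells called lower. Of 6 general neuron markers 3 were called lower in hypothalamus, of 6 astrocyte markers 2 were called higher, and none of 6 microglia markers was called. Of 6 endothelial markers 3 were called lower and 1 higher, and of 6 oligodendrocyte markers 1 was called higher. Among all symbols compared, 13.3% were called higher and 13.4% lower, and with so few markers these counts were not tested against those shares. Hippocampus replicates 3 and 4 held markers of choroid plexus, the tissue that makes cerebrospinal fluid, at a summed level of 6884 and 5136 against 60.2 and 81.8 in replicates 1 and 2. Hypothalamus libraries held pituitary hormone genes at a summed level of 84.4 to 523, against 1.42 to 1.77 in hippocampus. In hypothalamus that sum includes Pomc, also a gene of hypothalamic neurons, at 56.9 to 222, and Cga at 293, 279, 162 and 18.2. Tshb stood at 1.83 to 14.1 and Lhb at 2.62 to 7.53 there, while the pituitary hormone genes Prl and Gh1 averaged 0 and 0.0673. The part of pituitary tissue in these levels was not tested. In such bulk samples fewer cells of a type and less RNA per cell cannot be told apart.

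Carrier genes called in either direction were mostly lower in hypothalamus. Of the 61 genes, 56 were in both tables and 44 of these averaged 1 FPKM or more across all 8 libraries and were compared. Slc12a7 and Slc4a4 were called higher in hypothalamus, 2 of 44 or 4.55%, where 13.3% of the 10554 symbols compared were called higher. The 9 called lower, 20.5% of the 44 against 13.4% of all symbols, were Slc30a3, Slc24a1, Slc24a2, Slc9a4, Slc12a5, Slc4a10, Slc24a4, Slc30a9 and Slc9a2. In either direction 11 were called, where 26.7% of all symbols were. The median difference of the 44 was −0.35, beside −0.04 for all symbols compared. With non-overlap alone as the rule, 7 were higher (15.9%, against 25.7% of all symbols) and 16 lower (36.4%, against 27.7%), and in 21 the libraries of the tissues overlapped. Of all symbols, 53.4% did not overlap, in either direction.

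**Figure D1:**
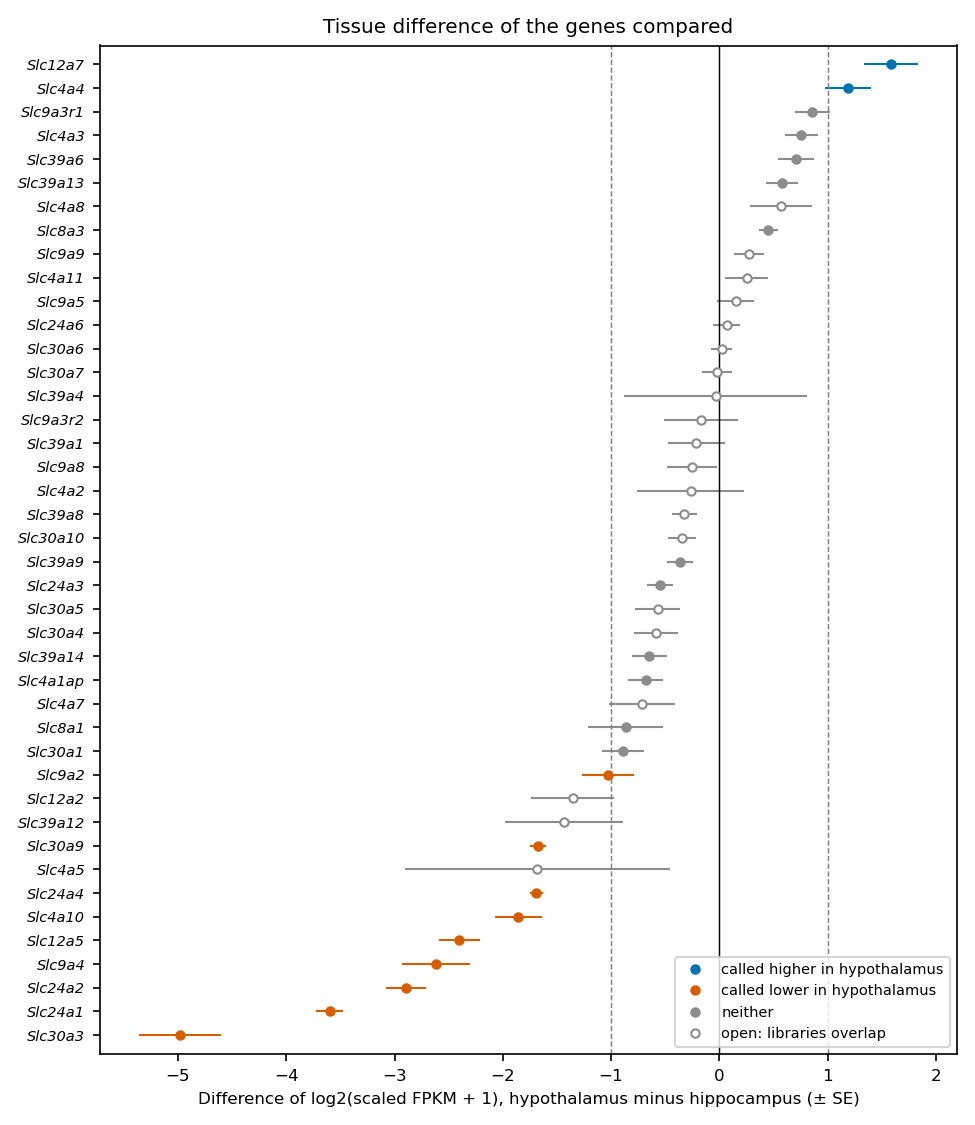
Difference of log2(scaled FPKM + 1), hypothalamus minus hippocampus, with its SE, for the genes compared that are named here, ordered by size; dashed lines mark the 2-fold limit and open circles mark genes whose libraries overlap between tissues. Slc30a3 lies farthest to the left at −4.98 and Slc12a7 farthest to the right at 1.59, while Slc4a5 has the widest SE, 1.22.

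Counts by family were small, and no difference between families was tested. In the Slc24 family, mostly potassium-dependent sodium-calcium exchangers, 3 of 5 were called lower and none higher, with a median difference of −1.69. In the Slc12 family 1 of 4 was called in each direction, and in the Slc4 family 1 of 9 in each direction. Slc9 and Slc30 had 2 called lower of 8 each, and of the 8 compared Slc39 genes and the 2 Slc8 genes none was called. Of all symbols 26.7% were called in either direction, and the Slc4, Slc9 and Slc30 counts lie near that share.

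**Figure D2:**
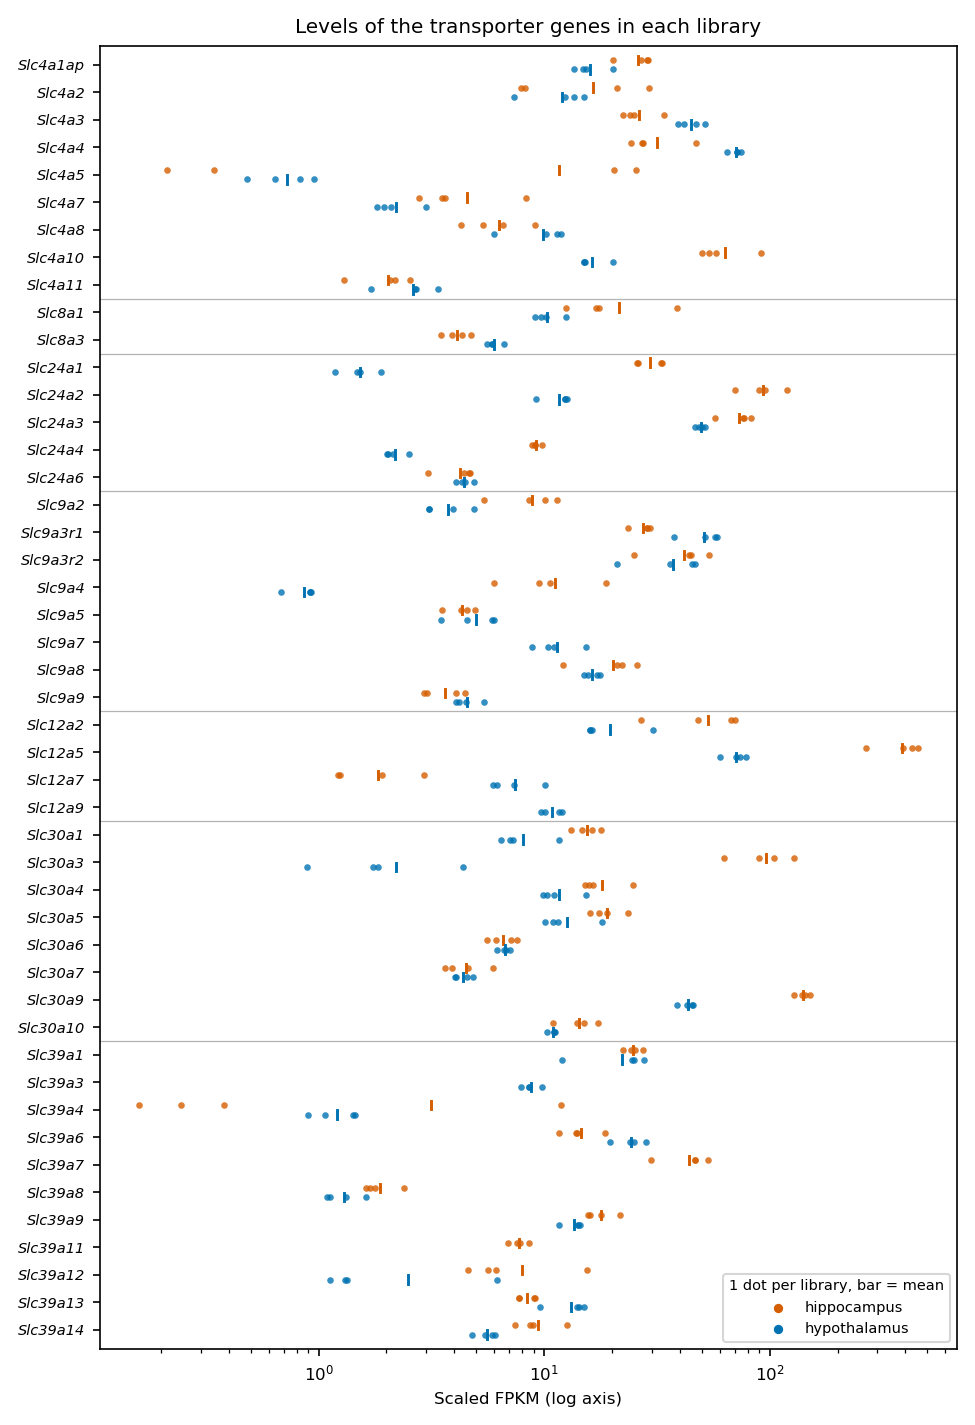
Scaled FPKM on a log axis for the genes compared that are named here and for those present in 1 table only, with 1 dot per library, orange for hippocampus and blue for hypothalamus, and a bar at the mean of 4. Slc12a5, at 268 to 455 in hippocampus, is the highest gene shown, and Slc4a5 and Slc39a4 have hippocampus dots both under 1 and above 10.

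Chloride carriers differed in both directions. Slc12a5 (KCC2), the potassium-chloride cotransporter that keeps chloride low in mature neurons, stood at 268, 427, 390 and 455 in hippocampus (385 ± 82.3, SD, n = 4) and at 60.1, 74.1, 78.6 and 71.2 in hypothalamus (71.0 ± 7.89). The lowest hippocampus library lay far above the highest of hypothalamus, and the difference was −2.40 (SE 0.19). The 6 general neuron markers summed to 2097 to 2508 in hippocampus and to 960 to 1133 in hypothalamus, with none at 0, and their part in this and the other neuronal genes was not tested. Slc12a2 (NKCC1), the sodium-potassium-chloride cotransporter that loads cells with chloride, stood at 26.8, 67.5, 70.0 and 48.1 in hippocampus (53.1 ± 20.1) and at 30.5, 15.9, 16.2 and 15.97 in hypothalamus (19.6 ± 7.21). Replicate 1 was the lowest library of hippocampus and the highest of hypothalamus, so the tissues overlapped and the difference of −1.35 (SE 0.38) was not called. Leaving out replicate 1 of either tissue removes that overlap, so the calls without hippocampus replicate 1 (−1.64) or hypothalamus replicate 1 (−1.57) add no support.

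Slc12a7 (KCC4), another potassium-chloride cotransporter, was the member with the largest difference in favour of hypothalamus. It stood at 1.22, 1.24, 2.94 and 1.91 in hippocampus (1.83 ± 0.81) and at 7.39, 10.1, 6.21 and 5.97 in hypothalamus (7.41 ± 1.88), with no overlap and a difference of 1.59 (SE 0.25). Slc12a5 stood above it in every library of both tissues.

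Slc12a1 and Slc12a3, the kidney carriers of the family, were low in both tissues, as was Slc12a8. Slc12a3, the thiazide-sensitive sodium-chloride cotransporter, averaged 0.18 in hippocampus and 1.56 in hypothalamus, without overlap, and fell under the filter of a mean of 1 FPKM. Slc12a1, the sodium-potassium-chloride cotransporter of the kidney, averaged 0.0116 and 0.101, and Slc12a8 averaged 0.338 and 0.752. Slc12a9 was in the hypothalamus table alone, at 10.9 ± 1.14.

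Several hippocampus levels were sums over 2 loci whose shares changed between libraries, and this bears on Slc12a5 and Slc12a2. Each table numbers its own loci and gives no positions, so which locus of one table matches which of the other is not known. The hippocampus locus of Slc12a5 with the higher mean stood at 62.5, 360, 335 and 397, and the second locus at 206, 67.4, 54.1 and 58.5, which is 76.7% of the sum in replicate 1 and 12.9% to 15.8% in the other three. When the locus with the higher mean alone was kept for every symbol, the Slc12a5 difference was −1.73 and the libraries overlapped; with the second locus alone it was −0.25. For Slc12a2 the first locus was listed at 0 in replicate 1 and at 38.2, 44.5 and 30.3 in replicates 2 to 4, while the second stood at 26.8, 29.2, 25.5 and 17.9. The direction of the Slc12a2 difference turned on this choice, at 0.35 with the first locus alone and −0.40 with the second.

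**Figure D3:**
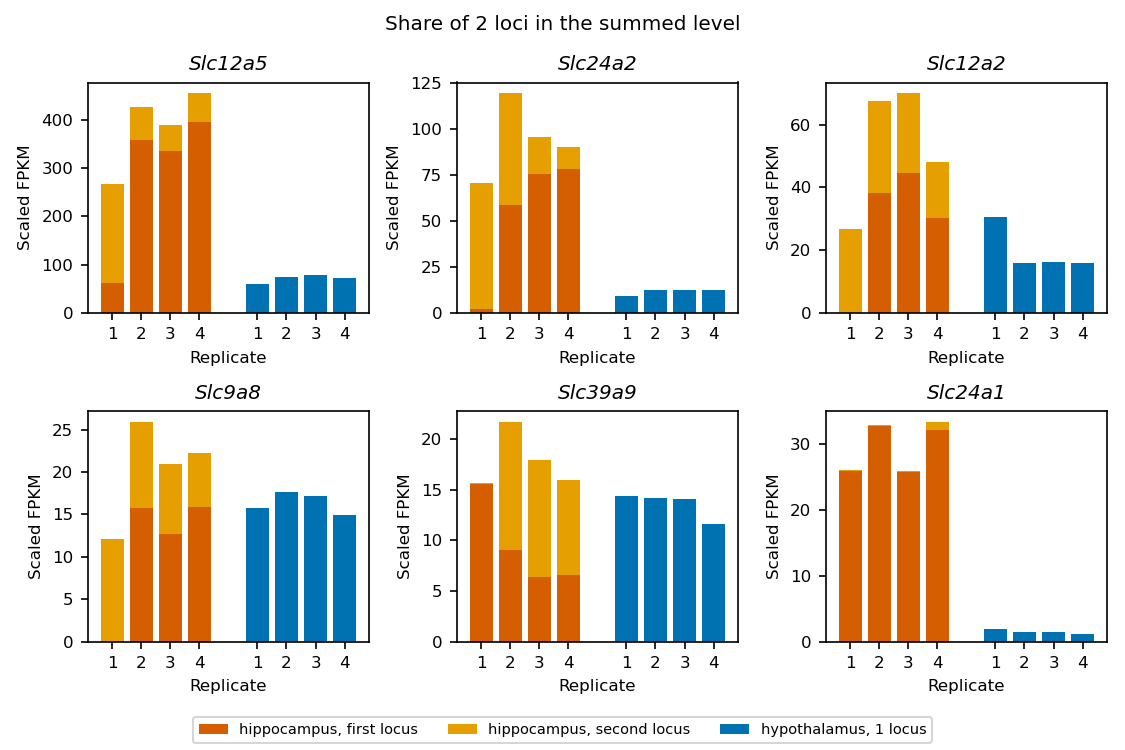
Scaled FPKM in each library for 6 genes that have 2 loci in the hippocampus table and 1 in the hypothalamus table; stacked orange and yellow bars show the first and second hippocampus locus, and blue bars the hypothalamus locus. In hippocampus replicate 1 the first locus of Slc24a2 (1.95) and of Slc12a5 (62.5) is the smaller share and that of Slc12a2 and Slc9a8 is at 0. In replicates 2 to 4 the first locus is the larger share for Slc12a5, Slc12a2 and Slc9a8. For Slc24a2 it is the larger in replicates 3 and 4, and the loci are close in replicate 2 (58.7 and 60.5).

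The ratio of Slc12a5 to Slc12a2 within a library does not depend on how that library was scaled. It was 10.005, 6.33, 5.57 and 9.46 in hippocampus (7.84 ± 2.22) and 1.97, 4.66, 4.84 and 4.46 in hypothalamus (3.98 ± 1.35). The highest hypothalamus ratio lay just under the lowest of hippocampus. With the second locus of each gene alone the ranges overlapped, at 2.12 to 7.67 in hippocampus.

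Kinases that act on these cotransporters were not called in either direction. WNK kinases act through Stk39 (SPAK) and Oxsr1 (OSR1), with Cab39 as their partner, and they switch chloride import on and potassium-chloride export off. For the 8 genes of that list, none of them called, the median difference was 0.05. Of all symbols 26.7% were called in either direction, and with so few genes the count was not tested against that share. Stk39 (−0.74, SE 0.22, with overlap) and Oxsr1 (−0.50, SE 0.18, without overlap) were lower in hypothalamus. The WNK genes had differences of 0.04 to 0.57, with overlap. Cab39, the highest of them, had 76.7 ± 23.7 in hippocampus and 48.3 ± 10.6 in hypothalamus, with overlapping libraries (−0.63, SE 0.24).

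Of the 5 Slc24 genes compared, Slc24a1, Slc24a2 and Slc24a4 were called lower in hypothalamus, and Slc24a3 and Slc24a6 were not called. Slc24a2 (NCKX2), the form of neurons, stood at 70.5, 119, 95.6 and 89.997 in hippocampus (93.8 ± 20.03) and at 9.25, 12.4, 12.3 and 12.6 in hypothalamus (11.6 ± 1.60). No library came near the other tissue, and the difference was −2.89 (SE 0.18). It too was a sum in hippocampus, of 1.95, 58.7, 75.3 and 78.2 at one locus and 68.6, 60.5, 20.3 and 11.8 at the second. With either locus alone the difference kept its sign but the libraries overlapped (−1.37 and −1.43).

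Slc24a1 (NCKX1), known from rod photoreceptors, stood at 26.1, 33.0, 25.9 and 33.4 in hippocampus (29.6 ± 4.14) and at 1.89, 1.49, 1.53 and 1.18 in hypothalamus (1.52 ± 0.289). Its difference of −3.60 (SE 0.13) was the second largest of all 44 genes, and 1 of its 2 hippocampus loci carried 96.5% or more of the sum in every library. Slc24a4 (NCKX4) had 9.09, 9.15, 9.84 and 8.83 in hippocampus (9.23 ± 0.428) and 2.13, 2.51, 2.02 and 2.03 in hypothalamus (2.17 ± 0.232). It had 1 locus in each table and the smallest error of the called members, with a difference of −1.69 (SE 0.06).

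Slc24a3 (NCKX3) differed less and led the family in hypothalamus. Its levels were 75.8, 82.9, 76.6 and 57.5 in hippocampus (73.2 ± 11.0) and 46.6, 48.7, 51.9 and 50.4 in hypothalamus (49.4 ± 2.31), without overlap and with a difference of −0.55 (SE 0.12). In hippocampus its libraries overlapped those of Slc24a2, whereas in hypothalamus it stood above every other gene of the family in all libraries. The ratio of Slc24a2 to Slc24a3 was 0.930 to 1.57 in hippocampus (1.30 ± 0.276) and 0.199 to 0.255 in hypothalamus (0.235 ± 0.0254). With the higher Slc24a2 locus alone the hippocampus ratio fell to 0.0257 in replicate 1, and the ranges overlapped.

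The mitochondrial exchanger Slc24a6 (NCLX) overlapped between tissues, at 4.22 ± 0.778 and 4.44 ± 0.343 (0.07, SE 0.13), and Slc24a5, the form of pigment cells, was near 0 in both tissues (0.168 and 0.0010). Sodium-calcium exchangers that do not need potassium were not called. Slc8a1 (NCX1) stood at 17.1, 38.7, 17.5 and 12.5 in hippocampus (21.4 ± 11.7) and at 12.5, 9.69, 10.2 and 9.07 in hypothalamus (10.3 ± 1.48). The lowest hippocampus library lay just above the highest of hypothalamus, and the difference of −0.87 (SE 0.34) passed the limit without hippocampus replicate 4 (−1.07). Slc8a3 (NCX3) had 3.90, 3.49, 4.75 and 4.34 in hippocampus (4.12 ± 0.544) and 5.86, 5.57, 6.65 and 5.88 in hypothalamus (5.99 ± 0.463), a difference of 0.45 (SE 0.09) without overlap.

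Sodium and calcium pumps share this work with the exchangers. Of 10 compared genes of such pumps, 4 were called lower in hypothalamus and 1 higher, where 13.4% and 13.3% of all symbols were. The calcium pumps of the plasma membrane Atp2b1 (−1.83, SE 0.24) and Atp2b2 (−1.48, SE 0.13) were among those called lower. Atp1b2, the beta subunit known from glia, was called higher (247 ± 28.5 against 754 ± 203, 1.56, SE 0.25).

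Among bicarbonate carriers the leading gene changed with the tissue. Slc4a10 (NBCn2), a sodium-coupled carrier of neurons and choroid plexus, stood at 57.8, 91.6, 53.6 and 50.4 in hippocampus (63.3 ± 19.1) and at 20.2, 15.1, 15.2 and 15.0 in hypothalamus (16.4 ± 2.53), a difference of −1.86 (SE 0.22). Slc4a4 (NBCe1), the electrogenic sodium-bicarbonate cotransporter best known in the brain from astrocytes, stood at 27.5, 47.3, 27.1 and 24.3 in hippocampus (31.6 ± 10.6). In hypothalamus it stood at 71.7, 74.6, 71.5 and 65.0 (70.7 ± 4.05), a difference of 1.19 (SE 0.21). Neither gene overlapped between tissues; without hippocampus replicates 3 and 4 the Slc4a4 difference was 0.95, under the limit. The 6 astrocyte markers summed to 1914 to 2145 in hippocampus and to 1929 to 2466 in hypothalamus, overlapping ranges, with Aqp4 and Aldh1l1 called higher in hypothalamus.

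The ratio of Slc4a10 to Slc4a4 separated the tissues widely. It was 2.10, 1.94, 1.98 and 2.07 in hippocampus (2.02 ± 0.0755) and 0.281, 0.202, 0.213 and 0.231 in hypothalamus (0.232 ± 0.0351). In hippocampus both genes were highest in replicate 2, where their ratio was the lowest of the tissue by a small margin. The libraries highest in choroid plexus markers, hippocampus replicates 3 and 4, had ratios between those of replicates 1 and 2.

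**Figure D4:**
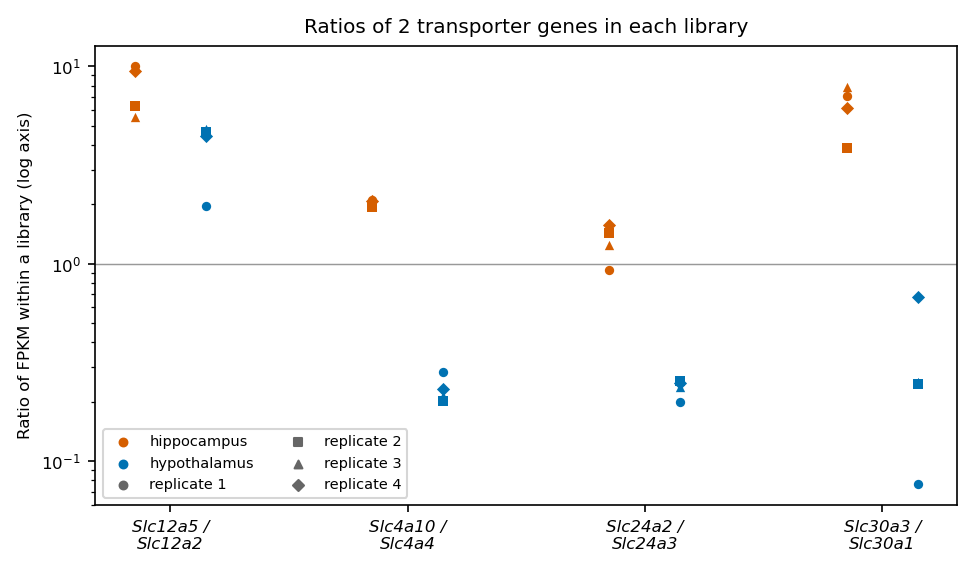
Ratio of the FPKM of 2 carrier genes within each library, on a log axis, in orange for hippocampus and blue for hypothalamus, with a marker shape per replicate. Slc4a10 over Slc4a4 is near 2.02 in all hippocampus libraries and at 0.202 to 0.281 in hypothalamus, and the closest approach of the tissues is in Slc12a5 over Slc12a2 (5.57 against 4.84).

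Chloride-bicarbonate exchangers were less different. Slc4a3 (AE3), the exchanger of excitable cells, had 34.1, 22.4, 24.02 and 25.1 in hippocampus (26.4 ± 5.24) and 51.8, 39.2, 41.9 and 47.2 in hypothalamus (45.0 ± 5.62), without overlap (0.76, SE 0.16). It was second to Slc4a4 in hypothalamus, and in hippocampus its libraries overlapped those of Slc4a4 and of Slc4a1ap. Slc4a1ap, which codes for kanadaptin, was lower in hypothalamus without overlap (26.2 ± 4.03 against 15.9 ± 2.88, −0.68, SE 0.16). Slc4a7 (NBCn1), Slc4a8 (the sodium-driven chloride-bicarbonate exchanger) and Slc4a11 overlapped, with differences of −0.71, 0.57 and 0.25.

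Slc4a5 and Slc4a2 split the hippocampus libraries into a high and a low pair. Slc4a5 (NBCe2), a sodium-bicarbonate cotransporter known from choroid plexus, stood at 0.214, 0.343, 25.5 and 20.4 in hippocampus and at 0.644, 0.953, 0.828 and 0.480 in hypothalamus. Slc4a2 (AE2), a chloride-bicarbonate exchanger of many epithelia, stood at 8.21, 7.88, 29.0 and 21.0 in hippocampus and at 7.34, 15.0, 12.3 and 13.5 in hypothalamus. Both were high in hippocampus replicates 3 and 4 alone, and their differences of −1.68 (SE 1.22) and −0.27 (SE 0.49) were not called.

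Choroid plexus markers with signal in hippocampus were highest in the same 2 libraries. Ttr, the transthyretin gene, stood at 38.7, 37.5, 6638 and 4990 in hippocampus, Kl at 0.391, 0.582, 48.9 and 26.9, Clic6 at 0.528, 1.95, 74.1 and 39.1, and Aqp1 at 0.277, 0.452, 25.6 and 17.7. Kcnj13 was split less, at 20.2, 41.0, 88.1 and 56.9 in hippocampus and at 18.7 to 33.1 in hypothalamus, and Prlr stood at 0.0868, 0.360, 9.31 and 4.99 in hippocampus. Of the 8 listed markers 7 were in the hippocampus table, and Otx2 was at 0 in all 8 libraries. The summed level of the list was 41.1 to 126 in hypothalamus. Without replicates 3 and 4 the Slc4a2 difference was 0.49 in place of −0.27, and Slc4a5 fell under the filter. The part of choroid plexus in the levels of other members was not tested.

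**Figure D5:**
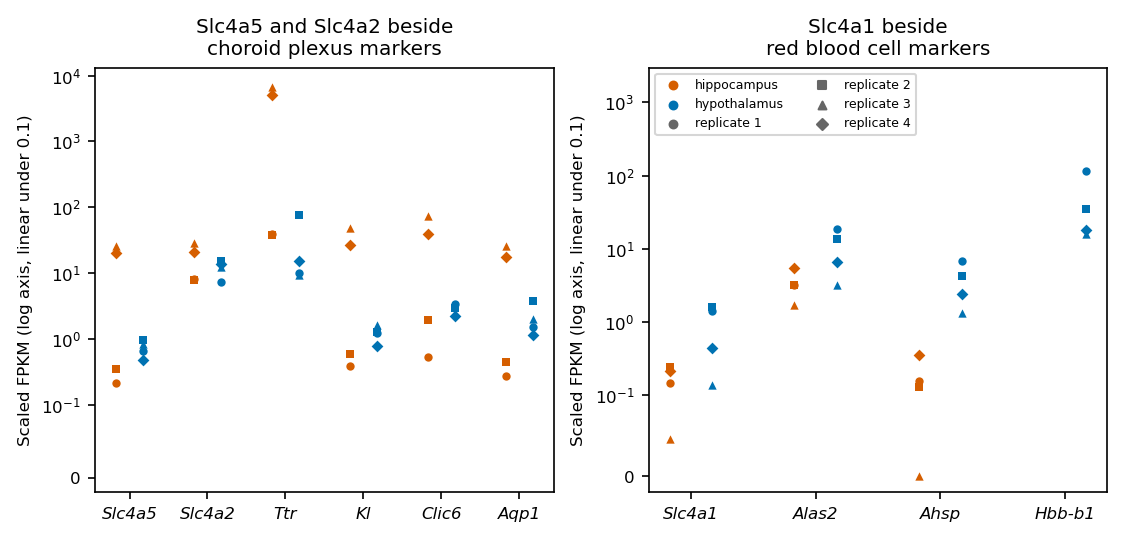
Scaled FPKM in each library, on an axis that is logarithmic above 0.1 and linear below, for Slc4a5 and Slc4a2 beside 4 choroid plexus markers (left) and for Slc4a1 beside red blood cell markers (right). Hippocampus replicates 3 (triangles) and 4 (diamonds) lie above replicates 1 and 2 for every gene on the left; Hbb-b1 is in the hypothalamus table only.

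Slc4a1 (AE1), the band 3 anion exchanger of red blood cells, was low throughout. It had 0.145, 0.243, 0.0452 and 0.212 in hippocampus and 1.4002, 1.61, 0.138 and 0.441 in hypothalamus, and fell under the filter. Its 2 highest libraries, hypothalamus replicates 1 and 2, were also the highest in Alas2 (18.5, 13.7, 3.23 and 6.65 in hypothalamus) and Ahsp (6.87, 4.21, 1.31 and 2.38), genes of haem and haemoglobin production. The part of blood in these levels was not tested. Slc4a9 was at 0 in all hippocampus libraries and averaged 0.0129 in hypothalamus.

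Carbonic anhydrases, which make bicarbonate from carbon dioxide, differed in both directions, with 1 of 9 called higher and 2 lower, where 13.3% and 13.4% of all symbols were. Car5b, a mitochondrial form, was called higher in hypothalamus (2.11 ± 0.398 against 7.21 ± 0.642, 1.41, SE 0.11). Car7, a cytosolic form of neurons, was called lower (8.55 ± 2.64 against 1.46 ± 0.464, −1.93, SE 0.25), and so was Car12, a membrane form (58.0 ± 19.6 against 2.44 ± 0.18, −4.03, SE 0.27), whose hippocampus level was a sum over 3 loci. Ca2, the cytosolic form of oligodendrocytes and choroid plexus, had the highest level of the list, 204, 219, 379 and 309 in hippocampus (278 ± 82.0), and was not in the hypothalamus table under that symbol.

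Of the 8 genes compared under the Slc9 prefix, scaffold genes included, 2 were called lower in hypothalamus and none higher. That count is near the 26.7% of all symbols called in either direction. Slc9a4 (NHE4) had the wider difference, with 10.6, 18.8, 9.45 and 6.01 in hippocampus (11.2 ± 5.42) and 0.920, 0.920, 0.681 and 0.922 in hypothalamus (0.861 ± 0.12). Every hippocampus library was several times the highest of hypothalamus, and the difference was −2.62 (SE 0.31). Slc9a2 (NHE2) had 10.1, 11.4, 8.61 and 5.39 in hippocampus (8.86 ± 2.58) and 3.95, 4.88, 3.10 and 3.10 in hypothalamus (3.75 ± 0.849), and its difference of −1.03 (SE 0.24) was just inside the limit. That call was lost without hippocampus replicate 1 (−0.96) or 2 (−0.90) and without hypothalamus replicate 3 or 4 (−0.96 each), and also on the values as deposited (−0.83) or with upper-quartile scaling (−0.91).

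Neuronal and organelle forms overlapped between the tissues. Slc9a5 (NHE5), a neuronal form, had 4.33 ± 0.582 in hippocampus and 4.98 ± 1.19 in hypothalamus, and Slc9a9 (NHE9), of endosomes, 3.62 ± 0.756 and 4.55 ± 0.619. Slc9a8 (NHE8), of the Golgi, had 20.3 ± 5.84 and 16.4 ± 1.22 as a sum over loci, but one hippocampus locus was at 0 in replicate 1, and with either locus alone the difference was above 0 (1.12 and 0.76, in place of −0.25). Slc9a7 (NHE7), also of the Golgi, was in the hypothalamus table alone, at 11.4 ± 2.74.

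Scaffold genes had the highest levels under the Slc9 prefix. Slc9a3r1 (NHERF1) stood at 28.6, 23.4, 29.5 and 28.6 in hippocampus (27.5 ± 2.76) and at 37.8, 58.5, 51.8 and 57.1 in hypothalamus (51.3 ± 9.44), without overlap and with a difference of 0.86 (SE 0.16). It passed the limit on the values as deposited (1.09). Slc9a3r2 (NHERF2) stood at 44.7, 25.1, 43.7 and 53.7 in hippocampus (41.8 ± 12.03) and at 21.1, 36.1, 46.9 and 45.4 in hypothalamus (37.4 ± 11.8), and overlapped. Slc9a3 (NHE3), the kidney and gut exchanger that gave both their names, was under the filter, at 0.110 ± 0.0605 and 1.11 ± 0.0887, without overlap. Slc9a10, the sperm exchanger, was at 0 in all 8 libraries.

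Among other exchangers and their helpers 2 of 7 were called, both lower in hypothalamus, a count near the 26.7% of all symbols called in either direction. Chp, which codes for a calcium-binding partner of the plasma membrane exchangers, had the highest level of that list (132 ± 26.9 against 25.4 ± 3.13, −2.32, SE 0.16). Slc26a6, an anion exchanger, had 5.42 ± 1.14 and 0.582 ± 0.363 (−2.03, SE 0.21).

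The widest difference of all lay among the zinc carriers. Zinc regulates some of its own carriers through the metal response element, a short promoter motif bound by the factor Mtf1, so the promoters of the vesicle carrier and of the plasma membrane carrier are shown beside that of a metallothionein, the textbook target of this factor. The 250 bases before the annotated start are RefSeq's, on build GRCr8, 5′ to 3′ on the gene's strand, with capitals on matches to the core TGCACNC or TGCGCNC or their reverse complements. Slc30a1 lies at chr13:106021769-106022018 (+), Slc30a3 at chr6:30997164-30997413 (+) and Mt2A at chr19:10838709-10838958 (−).
Slc30a1: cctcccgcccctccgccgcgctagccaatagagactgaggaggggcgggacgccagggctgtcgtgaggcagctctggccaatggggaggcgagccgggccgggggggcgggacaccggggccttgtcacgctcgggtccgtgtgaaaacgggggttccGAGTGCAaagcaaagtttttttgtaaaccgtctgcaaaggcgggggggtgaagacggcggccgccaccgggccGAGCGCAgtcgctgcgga
Slc30a3: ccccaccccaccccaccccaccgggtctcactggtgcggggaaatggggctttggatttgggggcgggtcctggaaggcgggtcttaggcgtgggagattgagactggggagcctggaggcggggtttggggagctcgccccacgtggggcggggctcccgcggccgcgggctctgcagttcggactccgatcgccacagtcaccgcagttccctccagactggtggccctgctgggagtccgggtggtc
Mt2A: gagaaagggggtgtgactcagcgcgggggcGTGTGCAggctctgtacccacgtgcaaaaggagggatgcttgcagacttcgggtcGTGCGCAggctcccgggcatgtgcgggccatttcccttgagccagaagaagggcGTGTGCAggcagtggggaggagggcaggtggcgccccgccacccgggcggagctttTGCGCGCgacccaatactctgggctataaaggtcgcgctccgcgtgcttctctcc
The Slc30a1 window held 2 matches and the Mt2A window 4, while that of Slc30a3 held none of these letters. Of the 33469 promoter windows of this length, 20.6% held at least 1 match, 4.90% at least 2 and 0.266% at least 4. Among carrier genes with a RefSeq window 17 of 49 (34.7%) held a match, 4 of 7 in the Slc30 family and 4 of 11 in the Slc39 family.

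Slc30a3 (ZnT3), which fills synaptic vesicles of glutamate neurons with zinc, stood at 128, 62.9, 104 and 89.8 in hippocampus (96.2 ± 27.1) and at 0.888, 1.74, 1.83 and 4.38 in hypothalamus (2.21 ± 1.51). The means were 43.5-fold apart, every hippocampus library lay far above every one of hypothalamus, and the difference was −4.98 (SE 0.38). In hypothalamus it was the most uneven of the called members, with replicate 4 well above replicate 1. Markers of pyramidal and granule cells, the neurons known to use vesicular zinc in hippocampus, differed in the same direction, with a summed level of 885 to 1465 in hippocampus and 19.7 to 23.8 in hypothalamus. Their part in the Slc30a3 difference was not tested.

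Slc30a9 (ZnT9), a zinc carrier of mitochondria, was the highest member of the family in both tissues. It stood at 128, 151, 140 and 143 in hippocampus (140 ± 9.56) and at 45.3, 43.1, 38.7 and 45.9 in hypothalamus (43.3 ± 3.26). The spread within each tissue was small beside the difference of −1.68 (SE 0.07). Slc30a1 (ZnT1), the main zinc exporter of the plasma membrane, stood at 18.0, 16.3, 13.2 and 14.7 in hippocampus (15.5 ± 2.06) and at 11.6, 7.06, 7.25 and 6.43 in hypothalamus (8.09 ± 2.38). The tissues did not overlap, and the difference of −0.89 (SE 0.19) passed the limit without hypothalamus replicate 1 (−1.06).

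The ratio of Slc30a3 to Slc30a1, vesicle loading over export, was 3.85 to 7.90 in hippocampus (6.25 ± 1.75) and 0.0763 to 0.681 in hypothalamus (0.314 ± 0.258). It was above 1 in every hippocampus library and under 1 in every hypothalamus library.

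Carriers of the secretory pathway and the manganese exporter overlapped between tissues. Slc30a5 (ZnT5) stood at 15.97, 23.4, 17.6 and 19.0 in hippocampus and at 18.0, 11.5, 10.1 and 11.0 in hypothalamus (−0.57, SE 0.21), and replicate 1 of hypothalamus was the library that overlapped. Its partner Slc30a6 (ZnT6) overlapped, at 6.60 ± 0.901 and 6.68 ± 0.372 (0.02, SE 0.09), as did Slc30a7 (ZnT7) at 4.52 ± 1.01 and 4.38 ± 0.397. Slc30a4 (ZnT4) had 18.1 ± 4.52 and 11.7 ± 2.50, and Slc30a10, which exports manganese, 14.3 ± 2.67 and 10.9 ± 0.413. Slc30a8 (ZnT8), of insulin granules, averaged 0.120 in hippocampus and was listed at 0 in hypothalamus, and Slc30a2 (ZnT2) averaged under 0.05 in both.

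No uptake carrier of the Slc39 family was called; Slc39a12 passed the 2-fold limit but its libraries overlapped. Slc39a6 (ZIP6) led in hypothalamus, with 13.8, 18.6, 13.98 and 11.7 in hippocampus (14.5 ± 2.91) and 19.6, 28.3, 25.1 and 23.96 in hypothalamus (24.2 ± 3.58), without overlap (0.71, SE 0.17). Slc39a1 (ZIP1) had 27.3, 25.2, 24.3 and 22.5 in hippocampus (24.8 ± 2.02) and 12.03, 27.6, 24.4 and 24.9 in hypothalamus (22.2 ± 6.96). Only replicate 1 of hypothalamus fell outside the hippocampus range by a wide margin, and the difference was −0.21 (SE 0.27). Slc39a7 (ZIP7), which releases zinc from the endoplasmic reticulum, led in hippocampus with 53.1, 29.6, 46.8 and 46.7 (44.1 ± 10.1) and was in that table alone; it overlaps another gene, Rxrb, in the RefSeq annotation, and whether strand was used in counting is not given in the sources used here.

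Other members of that family parted without reaching 2-fold. Slc39a13 (ZIP13), of intracellular vesicles, was higher in hypothalamus (8.41 ± 0.752 against 13.2 ± 2.46, 0.58, SE 0.15). Slc39a14 (ZIP14), which takes up zinc, iron and manganese, was lower (9.42 ± 2.28 against 5.56 ± 0.559, −0.65, SE 0.16), while its close relative Slc39a8 (ZIP8) was low and overlapped (1.87 ± 0.354 against 1.29 ± 0.249). Slc39a9 (ZIP9) was lower as a sum of loci (17.8 ± 2.77 against 13.6 ± 1.31, −0.36, SE 0.12), but the sign turned with either of its hippocampus loci alone (0.55 and 1.09).

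Slc39a12 and Slc39a4 were each set apart by single libraries. Slc39a12 (ZIP12), a zinc carrier of the brain, stood at 15.6, 5.63, 6.11 and 4.62 in hippocampus (7.98 ± 5.09) and at 6.17, 1.34, 1.12 and 1.30 in hypothalamus (2.48 ± 2.46). Replicate 1 was the highest of each tissue, and the difference of −1.44 (SE 0.54) was not called. The overlap lay in hypothalamus replicate 1 alone, so the calls without it (−1.85), or without replicate 1 of both tissues (−1.51), add no support. Slc39a4 (ZIP4), the zinc carrier of the gut, stood at 0.381, 0.160, 0.246 and 11.8 in hippocampus and at 0.898, 1.06, 1.43 and 1.46 in hypothalamus. One library thus held nearly all of its hippocampus signal, and without it the gene fell under the filter.

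Genes in 1 table only were Slc39a11 (7.72 ± 0.678) beside Slc39a7 for hippocampus, and Slc39a3 (8.73 ± 0.785) beside Slc9a7 and Slc12a9 for hypothalamus. Slc39a2 was at 0 in hippocampus and averaged 0.0461 in hypothalamus, and Slc39a5 averaged 0.103 and 0.0865. With these, 46 of the 58 members listed for hippocampus (79.3%) and 47 of 59 for hypothalamus (79.7%) averaged 1 FPKM or more, against 64.6% and 66.4% of all symbols.

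Of the metal-binding and metal response genes 2 of 9 were called, again near the 26.7% of all symbols. Mt2A, a metallothionein, had 39.8, 23.9, 29.6 and 38.0 in hippocampus (32.8 ± 7.43) and 4.76, 5.85, 4.75 and 6.70 in hypothalamus (5.51 ± 0.944), a difference of −2.36 (SE 0.19) without overlap. Mt3, the metallothionein of brain, was by far the highest of the list and overlapped (1742 ± 583 against 1445 ± 72.6, −0.19, SE 0.30). Slc41a3, a magnesium carrier, was called higher in hypothalamus (2.17 ± 0.124 against 6.67 ± 0.653, 1.27, SE 0.07). Mtf1 was in the hippocampus table alone, at 2.28 ± 0.69.

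Spread between libraries of a tissue was taken as the SD of log2(scaled FPKM + 1) for genes averaging 5 FPKM or more in that tissue. For this measure alone, the factor of each library was computed within its own tissue, over the symbols of that tissue. The median SD of 36 carrier genes in hippocampus was 0.30, beside 0.26 for all 7802 such symbols, and that of 33 in hypothalamus was 0.21, beside 0.20 for 8277. In hippocampus the largest were Slc4a5 (2.40), Slc4a2 (0.89) and Slc39a12 (0.69), and in hypothalamus Slc39a1 (0.51), Slc9a3r2 (0.51) and Slc12a2 (0.45). Without replicate 1 the hypothalamus medians were 0.095 for carriers and 0.098 for all symbols, so that library held a large share of the spread in both. The hippocampus medians without replicate 1 were 0.27 and 0.25.

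Near the 2-fold limit stood Slc9a2, just inside at −1.03, and Slc30a1 (−0.89), Slc8a1 (−0.87) and Slc9a3r1 (0.86), just outside. All 4 were without overlap between the tissues, so the limit alone decided their calls.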

How the data were processed

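Libraries were made from poly-A selected RNA with random hexamer priming and read on an Illumina HiSeq instrument, per the labels' protocols. Values are FPKM as deposited, with 1 table per tissue and a status beside each value. Cufflinks, Cuffdiff, TopHat, TopHat2, Bowtie and Bowtie2, and the build rn5, come from the submitters' processing notes. Their versions, strand settings and annotation were not given in the sources used here. All values of the carrier genes had the status OK. Libraries were grouped by the tissue in their titles.

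Loci that share a symbol had their FPKM added, and the sums were scaled by a median-of-ratios factor per library (0.892 to 0.950 for hippocampus, 1.07 to 1.12 for hypothalamus). Symbols averaging 1 FPKM or more were compared as log2(scaled FPKM + 1); the log2 values were computed here, since the deposited FPKM are linear. Alternatives covered pseudocount, filter, scaling, loci, left-out libraries, and limma 3.58.1 (R 4.3.3) across the tables, with and without a replicate block. Depth is unknown from these files. Scripts ran in Python 3.11.15 and were tested on simulated data. Every carrier could be named; values of every library were given for called genes, for the 2 highest of each family in each tissue and for genes in ratios, and others for context after their values were seen. The genes and lists were chosen with earlier results of these data known. Of 7 planned ratios 3 were not computed because a gene of the pair was not among the symbols used. A few carrier and pump genes entered the counts but are not reported here by name. Whether same-numbered libraries of the tissues share an animal is not given by the labels. Their deviations from the tissue mean correlated at −0.08 to 0.14 across genes, and those of differently numbered libraries at −0.20 to 0.20. These correlations cannot decide the pairing, since other differences between libraries also enter them.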

Additional observations from a re-analysis of the deposited data

Results flagged for a closer look

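In 13 of the 93 groups of 4 libraries, the highest or lowest library stood apart from the other three by more than Dixon's 95% limit. Independent normal values would pass that limit in about 1 in 20 groups. The share over all symbols was not computed, so the count is not a result about these genes. In hypothalamus the median SD of all symbols was 0.20, and 0.098 without replicate 1. Hypothalamus replicate 1 accounted for 6. It was high in Slc12a2 (30.5, others 15.9 to 16.2), Slc4a10 (20.2, others 15.0 to 15.2), Slc30a1 (11.6, others 6.43 to 7.25) and Slc39a12 (6.17, others 1.12 to 1.34). It was low in Slc24a2 (9.25, others 12.3 to 12.6) and Slc30a10 (10.3, others 11.1 to 11.2).

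Hippocampus replicate 2 accounted for 4. It was high in the bicarbonate carriers Slc4a4 (47.3, others 24.3 to 27.5) and Slc4a7 (8.28, others 2.79 to 3.62) and in the zinc carrier Slc30a4 (24.8, others 15.2 to 16.5), and low in the scaffold gene Slc9a3r1 (23.4, others 28.6 to 29.5).

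The other three were Slc39a12 in hippocampus replicate 1 (15.6, others 4.62 to 6.11), Slc39a4 in hippocampus replicate 4 (11.8, others 0.160 to 0.381) and Slc39a9 in hypothalamus replicate 4 (11.6, others 14.1 to 14.4). Slc4a5 and Slc4a2, with 2 high libraries in hippocampus, could not be picked out by this measure. No cause of these values was tested.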

How the results depend on the processing

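Members called higher numbered 1 in place of 2 when only symbols averaging 5 FPKM were kept (Slc12a7 was then not compared) and 1 with symbols of a single locus in each table, where Slc4a4 was not compared; 5 in place of 9 were then called lower, since Slc12a5, Slc24a1, Slc24a2 and Slc4a10 were not compared. The median difference was −0.59 with that stricter filter. With the second locus alone Slc4a4 turned to −4.89, its second hypothalamus locus being near 0, and Slc4a2 to 2.18. With no filter 3 were higher and 9 lower, Slc12a3 being added. Leaving out each library in turn gave 2 higher and 8 to 12 lower, where 1362 to 1553 of all symbols were higher and 1370 to 1515 lower. On the values as deposited 3 were higher and 8 lower; over all symbols the median difference was then 0.18 and the counts 1912 higher and 1018 lower, in place of 1402 and 1414. Without hippocampus replicates 3 and 4, an alternative added after the values were seen, 2 were higher and 13 lower. Over all symbols 1634 were then higher and 1513 lower, as fewer libraries make non-overlap easier to reach for every gene. Slc4a4 was lost, and the genes gained included Slc12a3, Slc30a1, Slc4a7 and Slc8a1. Without replicate 1 of both tissues, added likewise, 3 were higher and 11 lower, where 1606 of all symbols were higher and 1511 lower.

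The limma fit across the tables called 2 higher and 11 lower when a 2-fold difference and an adjusted p (Benjamini-Hochberg) under 0.05 were asked for, adding Slc12a2 and Slc39a12; its p-values cannot part tissue from table. With the replicate block the counts were also 2 and 11. FPKM without depth leaves low genes without an error of counting.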
